A study of Drosophila melanogaster with 2 samples.

Results

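Gap genes divide the early Drosophila embryo into broad regions along its length. The 10 genes described are hb, Kr and gt, which act mainly in the trunk, tll and hkb, which act at the ends of the embryo, oc, ems and btd, the head gap genes, and cnc and croc, which act in head segments. They were taken by name, as 10 of the 13945 protein-coding genes on the chromosome arms, and not by a threshold on a measured value. The data locate Spalt major (Salm), a zinc-finger transcription factor, on chromatin by immunoprecipitation and sequencing (ChIP-seq). Both samples were whole Drosophila melanogaster embryos aged 0 to 16 h from a transgenic line in which GFP is fused to the C-terminal end of Salm, precipitated through an antibody to GFP. The labels do not say whether the line also kept its own salm gene, or how strongly the fusion was expressed. The labels count them as 2 biological replicates of 1 group, and there was no second condition. The deposited lists are the peaks of each replicate and the peaks of both replicates pooled, with 30000 in each list. The authors also derived a thresholded list of 3421 peaks through the consistency of ranks between the replicates. The thresholded peaks ranked below held the same rank in the pooled list. A peak in the thresholded list can still rank differently in the 2 replicates.

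In the gap gene network, transcription factors encoded by one gene repress or activate the others, starting from maternal gradients. The head gap genes are switched on at the anterior end in overlapping domains, and the terminal genes by Torso receptor signalling. The salm gene lies downstream of this network in the early head and tail, where it acts as a region-specific homeotic gene. Several gap genes are expressed again later, for example hb and Kr in neural precursors. Whole embryos of all these ages were pooled, so few cells with a bound site and weak binding in many cells cannot be told apart.

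A summit is the position within a peak that the peak caller marked. Each gene was given a window that began 2 kb upstream and closed where the gene ends, and a summit there was counted for the gene. Summits up to 2 kb upstream but nearer to another gene were therefore counted too. Ranks order each list by the caller's signal, with 1 the strongest. Of the 10 genes, only cnc had a thresholded summit in its window, against 21.4% of all protein-coding genes. Among genes with windows between 3632 and 22523 bp, the range of the other 9 members, 24.6% had one. The pooled list had a summit in the windows of oc, ems, btd and cnc, so 4 of 10, against 61.4% of all genes. In the strongest 10000 pooled peaks it was again cnc alone, against 42.3% of all genes. In the strongest 10000 peaks of either replicate by itself the count was 2, oc and cnc, against 42.1% of all genes in replicate 1 and 42.0% in replicate 2. At croc, a summit was present in the replicate 2 list only. The windows of hb, Kr, gt, tll and hkb held no summit in the pooled list or in either replicate list. These 5 are called the trunk and terminal genes and the other 5 the head genes, a division by main role that was made with the values known. It is not strict, since hb, gt and tll are also expressed in the anterior embryo. Each of the 5 head genes had a summit in at least 1 list, while 29.5% of all protein-coding genes had none in the pooled or either replicate list.

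**Figure D1:**
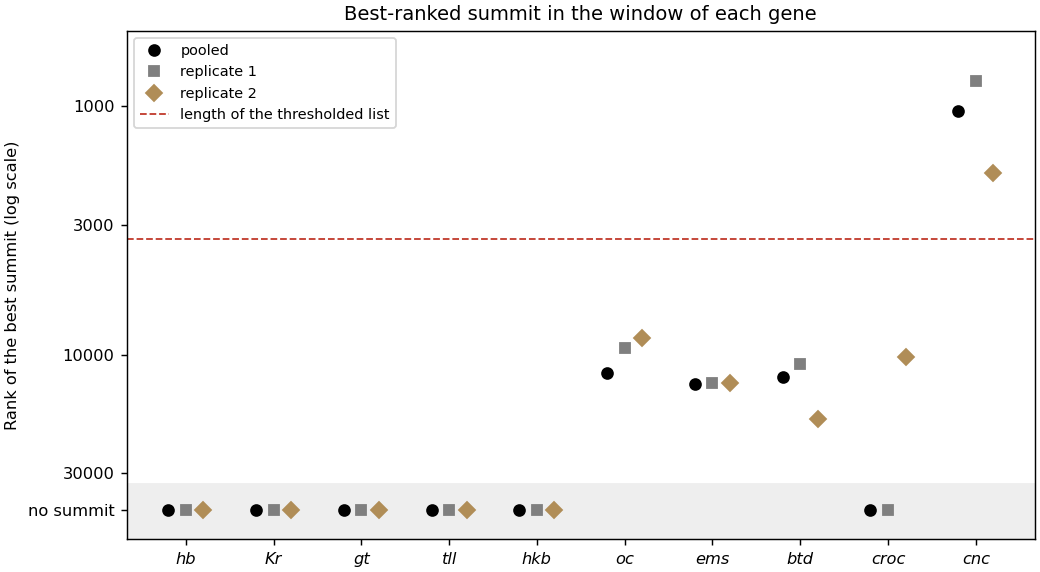
Rank of the best summit in the window of each gene, on a log scale with the strongest at the top, in the pooled list (circles), replicate 1 (squares) and replicate 2 (diamonds). The dashed line marks rank 3421, the length of the thresholded list, and the grey band holds genes without a summit. The 3 points of cnc lie above the line, those of oc, ems and btd between ranks 8555 and 18054, and croc has a point in replicate 2 only.

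The sequences around the summits that carry these results are shown 5′ to 3′ on the strand of the gene, from Release 6 of the genome, the assembly of dm6. Each line covers 50 bp to either side of a summit. The sequence at the gene start of cnc was shortened where it reached the annotated untranslated region. Capitals mark matches, on either strand, to GAGAG, the word bound by the GAGA factor, or to ATATT, an AT-rich word bound by SALL4, a mammalian relative of Salm. The first 3 lines are the thresholded summits of cnc, and the other 4 are the summits next to the starts of oc, ems, btd and croc.
cnc, 309 bp downstream of an internal start (chr3R:23190060-23190160, minus strand): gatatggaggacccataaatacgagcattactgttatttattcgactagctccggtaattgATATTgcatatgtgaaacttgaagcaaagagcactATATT
cnc, intron (chr3R:23212002-23212102, minus strand): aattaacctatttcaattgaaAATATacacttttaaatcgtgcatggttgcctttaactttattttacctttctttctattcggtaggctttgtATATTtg
cnc, 37 bp upstream of the gene (chr3R:23226712-23226798, minus strand): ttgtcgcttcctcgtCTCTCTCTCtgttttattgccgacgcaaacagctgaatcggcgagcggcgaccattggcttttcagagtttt
oc, 216 bp upstream (chrX:8650847-8650947, minus strand): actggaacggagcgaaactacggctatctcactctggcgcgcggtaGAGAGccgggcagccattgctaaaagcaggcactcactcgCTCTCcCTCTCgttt
ems, 116 bp upstream (chr3R:13901687-13901787, plus strand): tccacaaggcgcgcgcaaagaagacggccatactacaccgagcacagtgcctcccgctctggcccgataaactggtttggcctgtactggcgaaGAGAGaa
btd, 164 bp upstream (chrX:9693972-9694072, plus strand): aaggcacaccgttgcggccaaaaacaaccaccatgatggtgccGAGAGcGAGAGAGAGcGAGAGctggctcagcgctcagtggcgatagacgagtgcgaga
croc, 244 bp upstream, replicate 2 (chr3L:21476673-21476773, minus strand): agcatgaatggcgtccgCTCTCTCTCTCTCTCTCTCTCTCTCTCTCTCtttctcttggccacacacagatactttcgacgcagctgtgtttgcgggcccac

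The 3 trunk gap genes lay far from any summit. hb encodes a zinc-finger factor that is supplied by the mother and expressed again in the anterior embryo. Its window (chr3R:8690980-8699822 in dm6) holds both annotated starts, and the nearest pooled summit to either of them was 13063 bp away, beyond the end of the gene. Replicate 2 alone had 3 summits upstream of hb, at 6420, 7153 and 8012 bp and ranks 15123, 14920 and 20377. Beyond the other end of the gene, each replicate had a weak summit that the pooled list lacked, 11073 bp from a start of hb in replicate 1 (rank 21737) and 10998 bp in replicate 2 (rank 25480). The nearest summits of hb thus differed between the lists, and none lay in its window. Kr encodes a zinc-finger repressor of the central embryo and lies within an intron of CG9380 on the other strand. The pooled summit nearest to the start of Kr was 16403 bp upstream, at rank 26111, and it lay in a peak of replicate 2 (rank 23052) but in no replicate 1 peak. gt encodes a bZIP repressor with an anterior and a posterior domain. Its nearest pooled summit was 12236 bp downstream, at rank 20386, and a stronger one 14940 bp upstream (rank 7498) lay 69 bp downstream of the start of another gene, tko. Within 10 kb of the gene start, hb, Kr and gt had 0 pooled summits each, as did 16.0% of all protein-coding genes.

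The 2 terminal genes showed the same absence. tll encodes an orphan nuclear receptor that sets up the tail and parts of the brain. Its nearest pooled summit lay 8053 bp downstream at rank 9449, with ranks of 9248 and 11033 in replicates 1 and 2. hkb encodes a zinc-finger repressor that limits the mesoderm at the ends of the embryo. Its nearest pooled summit lay 8810 bp downstream, 81 bp downstream of the start of CG1103, at rank 19246, and was covered by a replicate 2 peak only (rank 24452). Replicate 2 also had stronger summits farther out, 12401 bp downstream (rank 3093) and 13078 bp upstream (rank 4568), next to the starts of CG9776 and CG1090. No replicate 1 peak covered either of them. The nearest thresholded summit lay 34836 bp from the start of tll and 48683 bp from that of hkb.

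Among all protein-coding genes, 29.5% had no summit of the pooled or either replicate list in the window, and 23.7% of those with windows between 3632 and 8843 bp, the range of the 5 genes. An absence of this kind was therefore common, and 5 of 10 is given as a count only. Of genes whose window was within 25% of the length of that of hb, 75.7% had a pooled summit, and for hkb, the shortest, 53.2%. The 5 windows add up to 27200 bp, and the arms as a whole held 0.224 pooled summits per kb. Repeat-masked sequence made up 9.06% of the window of tll, the lowest of the 5, and 16.7% of that of hb, the highest, against 20.1% of the arms.

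The distance to the nearest summit was taken from the same lists as the window counts, so it is not separate support for them. The limit of 5 kb and the division of the genes were also chosen after the values were seen. The nearest pooled summit was over 5 kb from every transcript start at all 5 trunk and terminal genes and at none of the 5 head genes, against 25.1% of all protein-coding genes. The distances were 8053 to 16403 bp in the former and 1 to 2369 bp in the latter. Each is taken from the nearest start of the gene, of which cnc has 10 and the trunk and terminal genes 1 or 2. For thresholded summits, the distances were 20634 to 48683 bp for the trunk and terminal genes and 37 to 13119 bp for the head genes. Among the trunk and terminal genes, the share of all genes at least as far from a thresholded summit ran from 14.7% for hkb to 33.6% for hb. Among the head genes, that share ran from 45.4% for ems to 98.3% for cnc. The median over all genes was 505 bp for pooled and 10773 bp for thresholded summits. The share of all genes at least as far from a pooled summit was 10.3% for Kr, 12.8% for hb, 13.5% for gt, 17.2% for hkb and 18.3% for tll. The head genes lay on either side of the middle of that distribution, with 35.2% of genes at least as far as croc, 59.8% as far as oc, 64.4% as far as btd, 71.5% as far as ems and 99.8% as far as cnc.

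**Figure D2:**
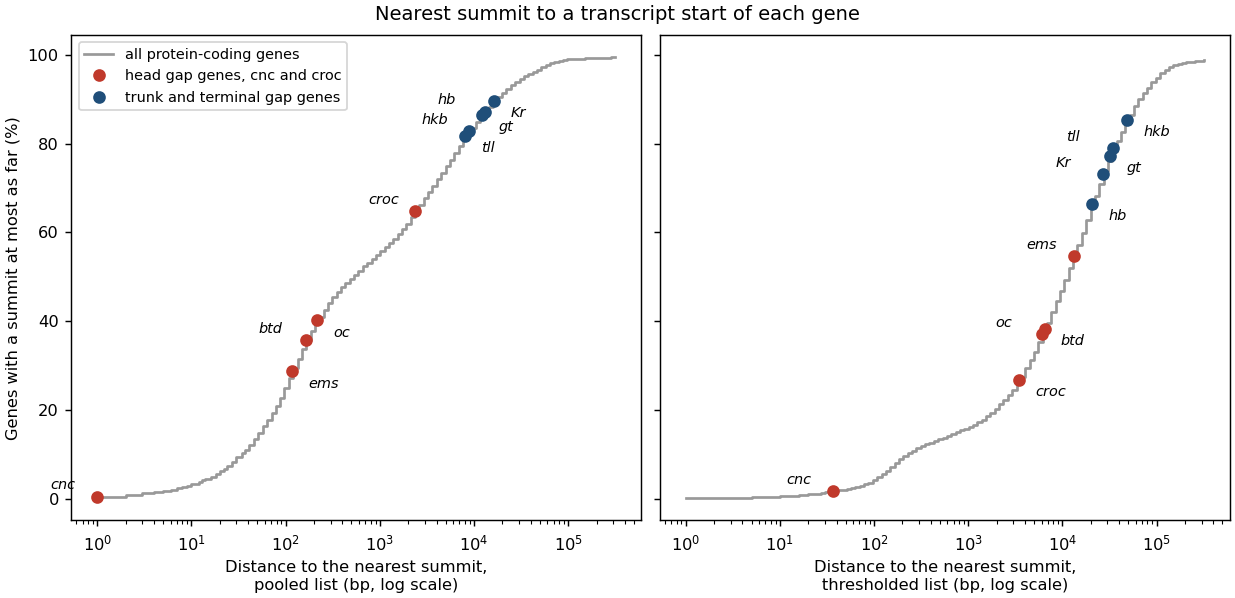
Share of all protein-coding genes (grey line, %) with a summit at most as far from a transcript start as the distance on the log axis (bp), for the pooled list (left) and the thresholded list (right). Red points are oc, ems, btd, croc and cnc, and blue points hb, Kr, gt, tll and hkb. In both panels each blue point lies to the right of each red point.

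In their windows, the 3 head gap genes had weak summits, each with one just upstream of the gene. A pooled summit within 500 bp of a transcript start was found at oc, ems, btd and cnc, so 4 of 10 genes, against 49.9% of all protein-coding genes. ems encodes a homeodomain factor of the antennal and intercalary region and of the brain. Its summit 116 bp upstream had a signal of 61.2 at rank 13077 and lay in a peak of each replicate, at ranks 12953 and 12928. A second summit in coding sequence, 627 bp downstream of the start, ranked 22650 and lay in a replicate 2 peak only (rank 19612). The replicate ranks at the start of ems were closer to each other than those of any other summit at oc, ems or btd. Within 10 kb of its start, ems had 10 pooled summits, against 9 at btd, 9 at cnc, 4 at oc and 2 at croc. Other early patterning genes, described below, had from 0 (Dfd among others) to 14 (bowl), with 11 at fkh and at cic. The share of all protein-coding genes with as many as ems was not taken. The strongest of the 10 at ems lay 8792 bp upstream, with a signal of 119.0 at rank 4685 and replicate ranks of 6155 and 3762. Those 5983 and 7317 bp downstream, at ranks 6830 and 8932, were also stronger than the one at its start. Both lay in peaks of both replicates.

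btd encodes an Sp-family zinc-finger factor of the head segments. Its summit 164 bp upstream had a signal of 64.0 at rank 12297, and ranks of 10959 in replicate 1 and 18054 in replicate 2. A second one, 1289 bp upstream and within 500 bp of the start of a non-coding RNA gene, had a signal of 61.2 at rank 13091, with ranks of 10911 and 27700. Both summits were present in both replicates and ranked higher in replicate 1.

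oc, also known as orthodenticle, encodes a homeodomain factor of the head and brain with 3 annotated starts. Its strongest pooled summit was in an intron, 13868 bp downstream of the gene start, with a signal of 65.9 at rank 11825 and ranks of 14049 and 8555 in the replicates. The summit 216 bp upstream had a signal of 60.4 at rank 13310 and lay in a replicate 1 peak at rank 9373. No replicate 2 peak covered it, nor the summits 415 bp upstream (rank 23438) and 1440 bp downstream (rank 25361). The intronic summit was the only one of the 4 at oc found in both replicates. Across oc, ems and btd, 4 of the 8 pooled summits were covered by peaks in both replicates, 3 in replicate 1 only and 1 in replicate 2 only.

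croc encodes a forkhead-domain factor of the head. The replicate 2 list had a summit 244 bp upstream of its start, with a signal of 29.7 at rank 10180. Neither the replicate 1 list nor the pooled list had one in the window. The closest pooled summit, at rank 28483, lay 2369 bp upstream, just outside the window, and in a peak of neither replicate.

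Thresholded summits did lie near the head genes, outside their windows. croc had one 3435 bp upstream (chr3L, signal 150.6, rank 3031), with ranks of 3759 and 3047 in the replicates, and another 11983 bp downstream of its start (signal 306.8, rank 840, replicate ranks 1039 and 764). In both cases croc was the protein-coding gene with the nearest start. oc had one 6088 bp upstream (signal 191.7, rank 1960, replicate ranks 1572 and 4183), again with oc as the nearest gene. ems had 2 beyond its end, 13119 and 13991 bp downstream of its start, with signals of 235.5 and 173.0 and replicate ranks between 1306 and 2996. The strongest of these flanking peaks was near btd, 6453 bp upstream with a signal of 779.1 at rank 120 and replicate ranks of 122 and 121, but it lay 667 bp upstream of nej, which encodes the acetyltransferase CBP. Within 10 kb of the gene start, a thresholded summit was found at 4 of the 5 head genes (oc, btd, croc and cnc) and at 0 of the 5 others, against 47.2% of all protein-coding genes.

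**Figure D3:**
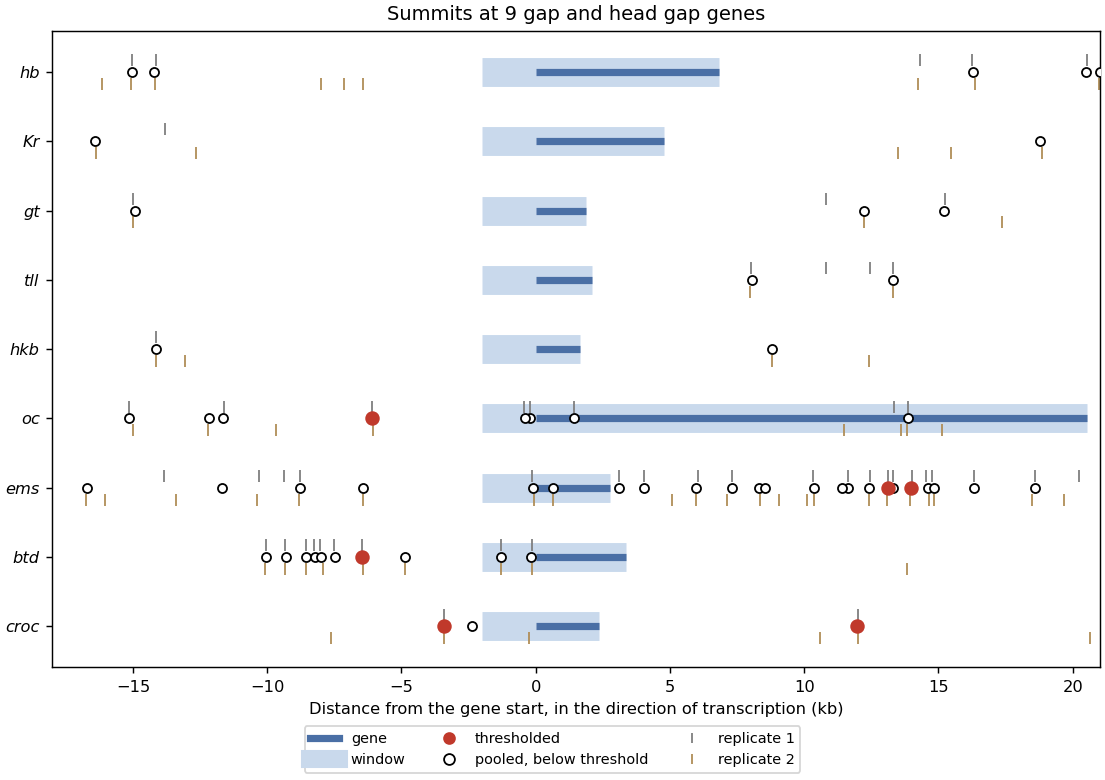
Summits around 9 of the 10 genes, by distance from the gene start in kb along the direction of transcription. Dark bars are genes and light bars the windows, red circles thresholded summits, open circles other pooled summits, and ticks the summits of replicate 1 (above) and replicate 2 (below). The windows of hb, Kr, gt, tll and hkb are empty, while oc, ems and btd have open circles at the start, and red circles lie outside the windows of oc, ems, btd and croc.

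cnc encodes a bZIP factor, the fly relative of mammalian Nrf2, which patterns the labral and mandibular head segments and also drives the response to oxidative stress. It is much the longest of the 10 genes (chr3R:23185580-23226711, minus strand), with a window of 43132 bp and 10 distinct transcript starts. The window held 3 thresholded and 18 pooled summits. Of the 358 genes with windows within 25% of this length, 46.6% had a thresholded summit, 16.2% had 3 or more, and 27.1% had 18 or more pooled summits. No summit in the window had a start of another protein-coding gene as its nearest, although fzo lies inside cnc.

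The strongest summit of cnc (chr3R:23190014-23190165) had a signal of 274.5 at rank 1043, above the median of 206 over the thresholded list. It lay in an intron, 309 bp downstream of an internal start that is 36292 bp from the gene start. It was the highest of the window in each replicate, with a signal of 197.0 at rank 793 in replicate 1 and 76.1 at rank 1866 in replicate 2, on scales that differ between lists. The second thresholded summit (chr3R:23211857-23212246) had a signal of 162.8 at rank 2642, in an intron 2505 bp from the nearest start of cnc. The third (chr3R:23226553-23226942), 37 bp upstream of the gene, had a signal of 154.7 at rank 2876. The lowest signal in the thresholded list was 141.4. These weaker summits ranked 2426 and 2765 in replicate 1 and 5546 and 5559 in replicate 2, so each stood lower in replicate 2.

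Below the threshold, 15 further pooled summits lay in the window of cnc. The strongest were 1 bp downstream of the start at 4750 bp (signal 111.3, rank 5282), 366 bp upstream of the start at 12154 bp (109.0, rank 5444) and 278 bp upstream of that at 37431 bp (104.4, rank 5843). Their replicate ranks lay between 3719 and 8379. With the thresholded summits, they make 6 peaks at 4.08, the ceiling of the −log10 q-value in the pooled list. That ceiling was reached by 5961 of the 30000 pooled peaks. Another pooled summit, 2122 bp upstream with a signal of 132.0 at rank 3886, fell just outside the window.

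The pooled summits of cnc fell in 2 stretches, one at each end of the gene. Of the 10 starts, 8 had a pooled summit within 500 bp and 2 had a thresholded one, and 8 of the 18 summits lay within 500 bp of a start. No pooled summit lay between 14659 and 35085 bp from the gene start, a stretch that holds the starts at 26011 and 33431 bp. Replicate 2 alone had a weak summit there, at 16237 bp and rank 19152. Each of the 8 summits among the strongest 10000 pooled peaks was covered by a peak of both replicates. Over all 18, this held for 9, with 4 covered in replicate 1 only, 4 in replicate 2 only and 1 in neither.

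**Figure D4:**
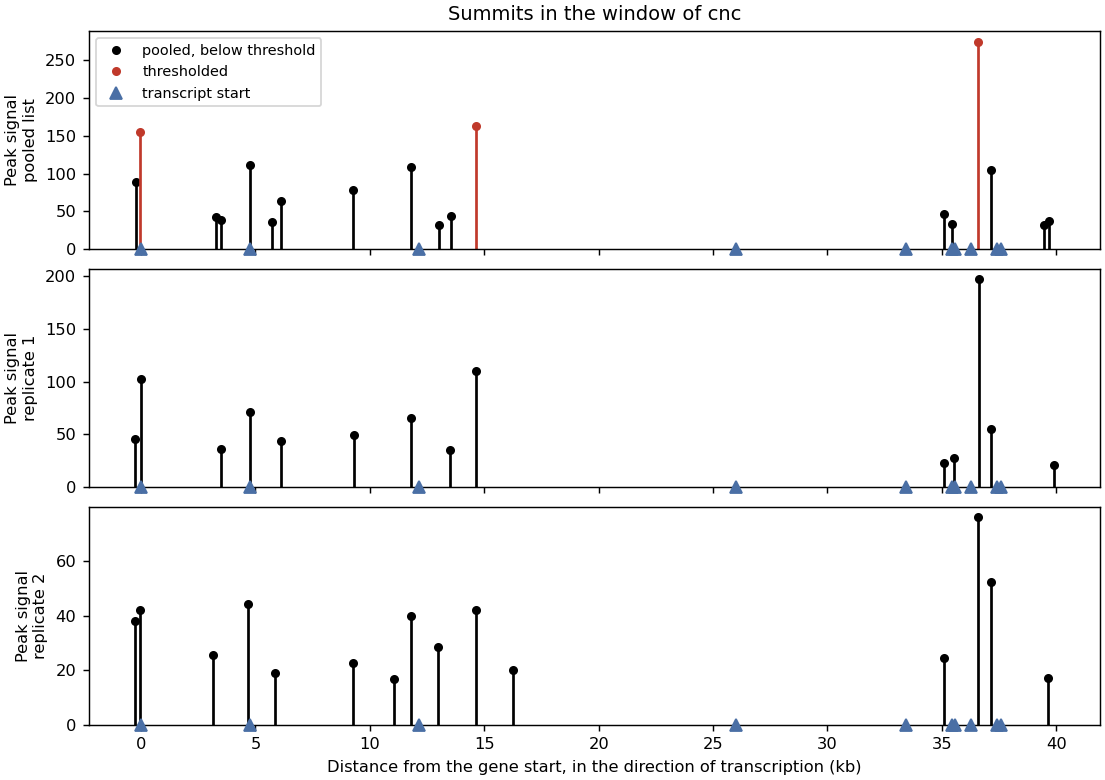
Signal of each summit in the window of cnc, against the distance from the gene start in kb, for the pooled list (top), replicate 1 (middle) and replicate 2 (bottom). The signal is on the peak caller's scale, which differs between lists. Red marks the 3 thresholded summits and triangles the 10 transcript starts. In all 3 panels the tallest summit lies next to the start at 36292 bp, and no summit lies next to the starts at 26011 and 33431 bp.

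The sequences shown above differed in base composition. Those just upstream of a gene were rich in G and C, with 58.4% at oc and ems, 59.4% at btd, 54.5% at croc and 48.5% at cnc, over the 101 bp around the summit. The other 2 thresholded summits of cnc had 35.6%, at 309 bp downstream of an internal start, and 27.7%. Position did not separate all summits in this way. Pooled summits not shown, within 500 bp upstream of a start of cnc, ranged from 24.8% (rank 18812) to 52.5% (rank 7464). The median was 32.7% over thresholded and 39.6% over pooled summits, and 37.6% over the 5244 pooled summits within 500 bp upstream of a coding start. ATATT was present at 2 of the 3 thresholded summits of cnc, the 2 away from the gene start, and in 52.0% of all thresholded windows and 36.4% of pooled ones. It was also at 2 of the 10 pooled summits within 500 bp upstream of a start of a member. Both were at cnc (ranks 5444 and 5843), against 42.2% of pooled summits in such positions.

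The word GAGAG was found at each of the 5 summits shown next to a gene start. At the strongest peak of each head gene it was found for 3 of 5, and the strongest peaks of oc and cnc lacked it. Counting all 10 pooled summits within 500 bp upstream of a start of a member, 4 had the word (oc, ems, btd and cnc, 1 each), against 15.3% of pooled summits in such positions. The share was 12.8% over all pooled and 9.85% over all thresholded windows. At croc the matches form 1 run of 31 bases in which C and T alternate, and 66.3% of the 101 bp was repeat-masked. CAGGTAG, the word of the early activator Zelda, and TAATCC, a word of Bicoid, were in none of the 14 windows examined at the members. These words are rare, in 0.443% and 2.8% of pooled windows. TATCGATA, bound by DREF and BEAF-32, was in none of the 14 either, against 0.973% of pooled windows.

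A wider list of other gap, head and early patterning genes gave a point of comparison. Of 30 listed genes, 29 were matched by symbol, and nos was left out because 2 genes carry that name. A thresholded summit lay in the windows of 9 of the 29, against 21.4% of all genes, and their windows were longer (median 13247 bp, against 5070.5 bp for the 10 members and 4166 bp for all genes). The strongest were at bowl, which encodes a zinc-finger factor of gut and leg (4 summits, the strongest 215 bp upstream with a signal of 579.3), gro, which encodes the Groucho corepressor (2 summits, 402.3, 144 bp upstream), cic, which encodes the repressor Capicua that limits tll and hkb to the ends (7 summits, 338.9, in an intron), and fkh, a forkhead gene of the gut (1 summit, 251.0, 237 bp upstream). The other 5 were nub, lab, cad, so and tsl, with signals between 143.9 and 229.5. The strongest summit counted for cad had the start of Pomp as its nearest, 6718 bp away.

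The remaining 20 genes of the wider list had none, among them scro and pdm2, those with the longest windows (35875 and 31142 bp). scro lies on chromosome arm 3L beyond the last peak of the lists, and its closest summit in any of them was 1573449 bp from its start. A pooled summit was present at 22 of the 29 (against 61.4% of all genes), and at 18 among the strongest 10000 pooled peaks (against 42.3%). At 3, scro, Dfd and fd59A, the window held no summit in the pooled or either replicate list, against 29.5% of all genes. The nearest pooled summit lay 14917 bp from the start of Dfd and 13589 bp from that of fd59A. Window lengths differ between the lists, so these counts are not a comparison between them.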

How the data were processed

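The authors' file descriptions derive the replicate and pooled peaks from the alignments and a control, not analysed here, and the thresholded peaks from those lists through the irreproducible discovery rate. Coordinates are dm6, per the labels, and are printed 1-based. Chromatin was sonicated to 200 to 800 bp, per the labels. No source used here names the peak caller, the aligner or the threshold. The deposited signal is the caller's strength for each peak, and the deposited −log10 q-value has a ceiling (4.08 pooled, 4.11 and 3.52 in the replicates), so peaks were ranked by signal. Read totals were not given, so depth is unknown, and a list of 30000 peaks is capped in length.

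Genes and transcript starts came from Ensembl release 115, and sequence from RefSeq's copy of Release 6, whose arm lengths contain all peaks. A summit is the peak start plus the deposited offset. Samples were grouped by the labels. No test was made, since there is 1 group and the members and lists were chosen with earlier results of these data known. Counts stand beside the share of all protein-coding genes with the same property. All members are named, with up to 4 bound and 2 unbound genes of the wider list. Genes beside flanking summits, the division into trunk, terminal and head genes, scro, Dfd and fd59A as genes without any summit, nub, lab, cad, so and tsl, and the distance limit of 5 kb were chosen after the values were seen. Alternative windows, list lengths and single replicates were tried. Counting was tested on simulated peaks. Python 3.11.15, numpy 2.4.6, pandas 2.3.3 and matplotlib 3.10.9 were used.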

Additional observations from a re-analysis of the deposited data

How the results depend on the processing

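The count of 1 member with a thresholded summit, cnc each time, was the same in several settings. These were each replicate's own strongest 3421 peaks (against 21.2% of all genes in replicate 1 and 21.3% in replicate 2) and the strongest 1710 thresholded peaks (12.5%). The others were a window from 1 kb upstream (19.1%), peak overlap of at least 1 bp (22.2%) and each summit given to the nearest gene (14.2%). At 12.5% and 14.2%, 1 of 10 is near the share of all genes. The count was 2 from 5 kb upstream (with croc, against 28.2% of all genes) and 4 from 10 kb upstream to 10 kb downstream (with oc and btd, against 52.1% of all genes). With that widest window, 8 members had a pooled summit (against 86% of all genes), 6 had one in the strongest 10000 (against 75.8%), and 15 of the wider list had a thresholded one. gt and Kr had none. From 5 kb upstream, 2 had one in the strongest 10000 (against 52.3%). A wider window can only add summits. In the strongest 10000 peaks of a single replicate the count was 2 without either replicate (oc and cnc), against 42.1% of all genes in replicate 1 and 42.0% in replicate 2. Best ranks without a replicate were 8555 to 9373 for oc, 12928 to 12953 for ems, 10911 to 18054 for btd and 793 to 1866 for cnc. With 100 bp to either side of the summit, TATCGATA was found at the strongest peak of 1 member, cnc. It was in 1.91% of pooled and 2.66% of thresholded windows of that width. GAGAG was then at the strongest peak of 4 members instead of 3, with croc counted from replicate 2. It was in 24.4% of pooled windows of that width. No paired analysis was possible because there is 1 group. Unknown depth limits every absence.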
